A study of Mus musculus with 12 samples.

Results

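Expression of 10 genes of the myeloid C-type lectin receptors was described in microglia and macrophages of the mouse central nervous system (CNS) with and without Tgfbr2, which encodes a receptor for TGF-beta. The genes were Clec4a1, Clec4a2, Clec4a3, Clec4d, Clec4e, Clec4n, Clec5a, Clec7a, Clec10a and Clec12a. They were found by matching gene symbols to the Ensembl identifiers of the expression table, and all 10 were among its 25904 genes. All 10 also passed the filter for testing, which asked for a normalised count of 10 or more in 3 or more of the 12 libraries. Clec4d passed it through the KO macrophage libraries alone, and Clec4e through WT and KO macrophage libraries alone.

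RNA-seq had been carried out on 4 groups of C57BL/6 mouse cells, each with 3 libraries. The microglia came from Tgfbr2 fl/fl mice without Cre (WT) or from Cx3cr1CreER/+ Tgfbr2 fl/fl mice (KO), in which a tamoxifen-dependent Cre takes the place of 1 Cx3cr1 allele. The macrophages were derived from bone marrow of the same 2 genotypes, transplanted into irradiated Cx3cr1CreER/+ R26DTA/+ recipients, whose own microglia were killed by diphtheria toxin A once tamoxifen was given at 6 weeks. Every group had received tamoxifen in 3 doses of 5 mg, and cells of brain and spinal cord were sorted 18 to 22 days later. Both KO groups therefore carry the Cre allele and a single functional Cx3cr1 allele, which the WT donors do not, and both macrophage groups come from irradiated hosts. Cells of 1 to 5 mice were pooled for a library, and age and sex are not given in the labels. The sorting gate for F4/80, the product of Adgre1, was set low for WT and high for KO cells, so gate and genotype cannot be told apart. It holds no marker of donor cells, so host cells that outlived the depletion would have been sorted with the macrophages.

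The libraries held between 2615404 and 6364994 reads in genes, and values are given as normalised counts (reads divided by the size factor of the library). Tgfbr2 itself, measured over the whole gene, ranged from 2495 to 3172 (microglia) and 2997 to 3486 (macrophages) in the WT groups, and from 2078 to 2256 and 2068 to 2469 in the corresponding KO groups. A deleted exon would leave reads of the other exons, so this total does not measure the deletion. Ddx3y, a Y-linked gene, was high in all 3 KO microglia libraries and in 1 library of each other group. With Ddx3y as a covariate the member counts were the same in every comparison except that between the 2 KO groups, where 4 in place of 5 members were called higher. The 10 microglia markers, all in the table, summed to 81215 to 106815 in the WT microglia libraries and to 5710 to 6390 after deletion, and to 26437 to 28539 in the WT macrophage libraries and to 7262 to 8272 after deletion. In the same order, the 8 markers of border-associated macrophages, all in the table, summed to 127 to 146, 20684 to 25034, 8197 to 10192 and 22266 to 22876. In bulk RNA, fewer cells of a type and less RNA per cell cannot be told apart, and the part that a changed mix of cells has in the results was not tested.

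C-type lectin receptors are membrane proteins of myeloid cells that bind sugars and other ligands of microbes and of damaged cells through a C-type lectin domain. Some, such as Dectin-1, Dectin-2, Mincle and MDL-1, activate the kinase Syk, through a motif of their own or through the adaptors FcR-gamma (Fcer1g) and DAP12 (Tyrobp), and in many of them the signal runs on through Card9 to NF-kappa-B. Others, such as DCIR and MICL, carry an inhibitory motif that recruits phosphatases. Most of their genes lie in clusters on mouse chromosome 6, and Dectin-1 is known as a marker of microglia in disease and ageing.

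Promoter windows of 4 members are shown because their genes had the main patterns of the family: a rise in both KO cell types (Clec4a1), a fall in both (Clec5a), a level that differed most between the WT cell types (Clec12a) and a rise with both genotype and origin (Clec7a). Each holds 300 bases, the first 250 of them before a RefSeq transcription start (GRCm38.p6), 5′ to 3′ on the strand of the gene. The start used for Clec12a lies inside the span that GENCODE gives the gene. Capitals mark GAGGAAG, or its reverse complement, a sequence bound by the myeloid transcription factor PU.1. The windows lie at chr6:122921598-122921897, plus strand (Clec4a1), at chr6:40585756-40586055, minus strand (Clec5a), at chr6:129349994-129350293, plus strand (Clec12a), and at chr6:129472730-129473029, minus strand (Clec7a).
Clec4a1: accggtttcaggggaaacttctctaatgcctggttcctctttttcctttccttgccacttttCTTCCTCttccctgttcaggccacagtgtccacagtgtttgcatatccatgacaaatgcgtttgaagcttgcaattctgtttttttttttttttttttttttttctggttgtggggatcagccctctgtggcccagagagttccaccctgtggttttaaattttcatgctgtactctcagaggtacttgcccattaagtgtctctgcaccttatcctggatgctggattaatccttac
Clec5a: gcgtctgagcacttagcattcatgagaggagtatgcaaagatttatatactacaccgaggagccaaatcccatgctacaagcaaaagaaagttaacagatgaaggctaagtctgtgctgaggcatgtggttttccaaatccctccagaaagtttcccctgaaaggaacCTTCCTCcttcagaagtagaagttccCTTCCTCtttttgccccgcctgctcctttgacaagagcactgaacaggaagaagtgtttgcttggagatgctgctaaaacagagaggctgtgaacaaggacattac
Clec12a: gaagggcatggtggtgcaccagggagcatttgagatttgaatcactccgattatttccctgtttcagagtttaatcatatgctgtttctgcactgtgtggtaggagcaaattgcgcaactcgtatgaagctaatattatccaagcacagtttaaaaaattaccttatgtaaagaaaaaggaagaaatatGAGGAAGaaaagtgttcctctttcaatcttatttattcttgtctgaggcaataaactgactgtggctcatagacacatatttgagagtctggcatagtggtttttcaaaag
Clec7a: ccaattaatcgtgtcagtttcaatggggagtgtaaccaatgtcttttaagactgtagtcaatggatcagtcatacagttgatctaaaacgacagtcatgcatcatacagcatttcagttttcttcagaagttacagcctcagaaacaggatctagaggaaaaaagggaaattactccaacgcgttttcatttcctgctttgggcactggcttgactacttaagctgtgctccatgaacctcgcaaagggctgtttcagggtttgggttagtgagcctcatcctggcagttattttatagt
The PU.1 sequence begins 188 bases before the start in Clec4a1, 82 and 56 bases before it in Clec5a and 61 bases before it in Clec12a, and Clec7a has no match in this window. It was found on either strand in 4 of the 10 windows of the 8 members with a RefSeq entry, Clec4d being the fourth, and in 13.6% of all 32851 promoter windows. The SMAD sequence GTCTAGAC was in 0 of the 10 windows (0.213% of all windows). The shorter SMAD sequence CAGACA was in those of Clec4a2 and Clec12a (21%). The AP-1 sequence TGANTCA was in those of Clec4a2 and Clec12a (7.81%), and the C/EBP sequence TTGCNNAA in those of Clec4e and Clec12a (10.8%). The IRF sequence GAAANNGAA was in that of Clec4d (8.56%), and the E-box CACGTG in 0 (7.15%). Both strands were searched and no match overlapped one of another motif. A match is a description of these letters and not evidence of binding.

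Most of the receptors were higher in KO than in WT microglia and 1 was lower. Of the 10 genes, 8 were higher in KO than in WT microglia, Clec5a was lower and Clec4e did not pass the test (limma on log2 values, Benjamini-Hochberg adjusted p under 0.05 over 12519 genes). Over all tested genes 21.9% were called higher and 20.6% lower. The median log2 change of the 10 genes was 2.46 against -0.01 for all tested genes, and 2.36 with Clec4d, which had no read in WT microglia, set at its lower bound. In macrophages 6 of the 10 genes were higher in KO than in WT cells and Clec5a was again lower, against 16% and 15.4% of all tested genes. Clec4d, Clec4e and Clec12a did not pass the test there. The median log2 change was 1.49, against 0.00 for all tested genes. Clec4d, which entered the test through the KO macrophage libraries alone, is among the middle values that set this median. The median therefore does not support a rise.

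**Figure D1:**
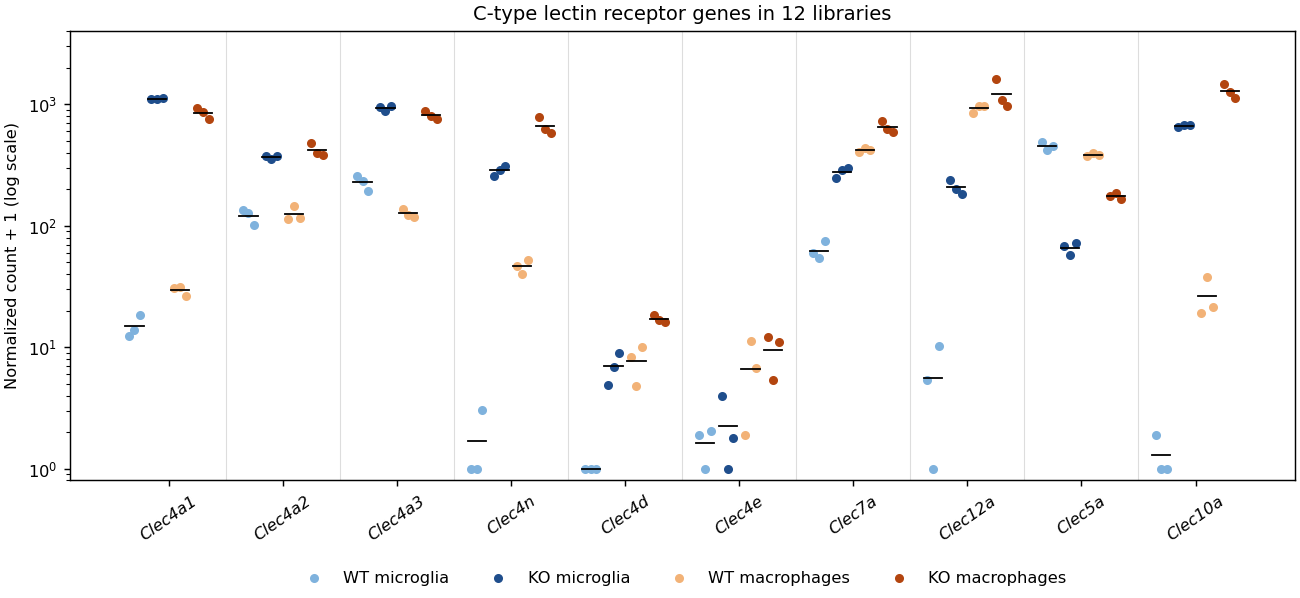
Normalised counts of the 10 receptor genes, with 1 added, on a log axis; each point is a library, colours are the 4 groups and bars are group means. The KO libraries lie above the WT libraries of the same cell type for 8 genes in microglia and 7 in macrophages. They lie below them for Clec5a in both, and overlap them for Clec4e in both and for Clec12a in macrophages. The 7 include Clec4d, which passed the filter through the KO macrophage libraries alone. The share of all genes that separate in this way was not counted, so these numbers only describe the plot.

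Clec4a1, Clec4a2 and Clec4a3 belong to the DCIR subfamily. Clec4a2 encodes DCIR, which has the inhibitory motif, while the products of Clec4a1 and Clec4a3 have short cytoplasmic tails without it. Clec4a1 (ENSMUSG00000049037, GRCm38 chromosome 6, 122921848 to 122934619, plus strand) stood at 11.5, 12.9 and 17.6 in the WT microglia libraries and at 1104, 1107 and 1134 in the KO microglia libraries. In macrophages it stood at 30.0, 30.5 and 25.5 in WT and at 925, 866 and 762 in KO libraries. Every KO library was thus far above every WT library in both cell types, and the KO microglia libraries were all above the KO macrophage libraries. The KO microglia mean was 79.8-fold the WT mean (log2 6.24 ± 0.15 (SE), limma adjusted p = 4.75e-14), and the KO macrophage mean 29.7-fold (log2 4.84 ± 0.15, limma adjusted p = 2.15e-11). WT macrophages had 2.05-fold the level of WT microglia (limma adjusted p = 5.55e-05).

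Clec4a3 (ENSMUSG00000043832, chromosome 6, 122952515 to 122969875, plus strand) was present in every group. Its microglia libraries stood at 257, 234.5 and 193 (WT) and at 952, 877 and 968 (KO). Its macrophage libraries stood at 137, 122 and 118 (WT) and at 879, 800 and 756 (KO). The KO libraries did not overlap the WT libraries, and the libraries of the 2 KO groups overlapped each other. The rise was 4.09-fold in microglia (log2 2.04 ± 0.11, limma adjusted p = 5.81e-10) and 6.47-fold in macrophages (log2 2.68 ± 0.11, limma adjusted p = 2.66e-10). It was the only member lower in WT macrophages than in WT microglia by the test (log2 -0.85 ± 0.11, limma adjusted p = 1.63e-05).

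Clec4a2 (ENSMUSG00000030148, chromosome 6, 123106428 to 123143999, plus strand), the inhibitory DCIR, moved least of the DCIR genes. It stood at 133.1, 126 and 100 in the WT and at 378, 354 and 374 in the KO microglia libraries, a 3.07-fold rise (log2 1.62 ± 0.13, limma adjusted p = 7.35e-08). In macrophages it went from 113, 144 and 114 to 479, 398 and 383, a 3.40-fold rise (log2 1.76 ± 0.13, limma adjusted p = 1.2e-07). The WT libraries of the 2 cell types overlapped (difference of log2 0.05 ± 0.13, limma adjusted p = 0.821). Of the 50-base sequences in its annotated transcripts, 6.69% also occur in transcripts of other genes, mainly Clec4a4, so a small share of its reads may be uncertain.

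The activating receptors that pair with FcR-gamma are Dectin-2 (Clec4n), MCL (Clec4d) and Mincle (Clec4e), which bind fungal mannans and mycobacterial glycolipids. Clec4n (ENSMUSG00000023349, chromosome 6, 123229843 to 123247021, plus strand) had 2 reads in all 3 WT microglia libraries together and 939 in the KO microglia libraries. Its normalised counts there were 0, 0 and 2.07 in WT and 254, 288 and 311 in KO. In macrophages they were 45.5, 39.4 and 51.0 in WT and 781, 620 and 579 in KO. KO was thus above WT in every library, and WT macrophages, unlike WT microglia, already had the transcript. The ratio of reads in microglia was 412 (95% counting interval 114 to 3406), with a fitted log2 change of 7.61 ± 0.33 (limma adjusted p = 5.63e-11) that is set in part by the 1 added before taking logs. In macrophages the rise was 14.6-fold (log2 3.83 ± 0.33, limma adjusted p = 5.4e-07).

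Clec4d (ENSMUSG00000030144, chromosome 6, 123262111 to 123275265, plus strand) was scarce throughout. No read fell in it in WT microglia, and the other groups had 20 reads (KO microglia), 22 (WT macrophages) and 50 (KO macrophages). Its highest library, at 17.6, was of KO macrophages. Against the floor of 3 reads over the group it was at least 5.85-fold higher in KO than in WT microglia (limma adjusted p = 0.000137) and at least 6.81-fold higher in WT macrophages (limma adjusted p = 0.000113). In macrophages the mean was 6.72 ± 2.67 (SD, n = 3) in WT and 16.1 ± 1.32 in KO cells, with no overlap of libraries (log2 1.21 ± 0.45, limma adjusted p = 0.0533). With 8 added before taking logs in place of 1 the adjusted p was 0.0130. Since Clec4d entered the test through the KO macrophage libraries alone, these macrophage values do not support a rise.

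Clec4e (ENSMUSG00000030142, chromosome 6, 123281789 to 123289870, minus strand) had 2 reads in the WT and 4 in the KO microglia libraries, and 16 and 26 in the corresponding macrophage libraries. Its libraries overlapped between KO and WT in both cell types (limma adjusted p = 0.784 in microglia and 0.448 in macrophages). A change of the Mincle transcript with genotype was not detectable at this depth. The neutrophil marker list, given here because neutrophils express Mincle and MCL, had 7 of its 10 genes in the table. Apart from Csf3r, which microglia also express, those markers (S100a8, S100a9 and Ngp among them, all at 0 in KO macrophages) summed to 4.14 to 16.7 (WT) and 0 to 24.6 (KO) in microglia, and to 0.910 to 8.23 (WT) and 0 to 4.802 (KO) in macrophages.

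Dectin-1, the receptor for beta-glucans, is encoded by Clec7a (ENSMUSG00000079293, chromosome 6, 129461591 to 129472779, minus strand, listed by GENCODE as a polymorphic pseudogene) and carries its own activating motif. It stood at 58.2, 52.8 and 73.5 in the WT and at 247, 286 and 299 in the KO microglia libraries. In macrophages it stood at 401, 436 and 421 in WT and at 733, 626 and 593 in KO libraries. The 4 groups did not overlap, and WT macrophages were above even KO microglia. The rise was 4.51-fold in microglia (log2 2.17 ± 0.13, limma adjusted p = 1.53e-09) and 1.55-fold in macrophages (log2 0.63 ± 0.13, limma adjusted p = 0.00153). Between the WT groups the macrophage mean was 6.82-fold higher (log2 2.76 ± 0.13, limma adjusted p = 2.03e-10).

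MDL-1, encoded by Clec5a (ENSMUSG00000029915, chromosome 6, 40574894 to 40585821, minus strand), signals through DAP12 and is known as a receptor for flaviviruses. It was the single member that fell. In microglia its libraries stood at 488, 416 and 457 (WT) and at 67.8, 57.0 and 70.7 (KO), a 6.97-fold lower mean (log2 -2.78 ± 0.11, limma adjusted p = 1.22e-11). In macrophages they stood at 375, 397 and 379 in WT and at 174, 186 and 165 in KO, a 2.19-fold lower mean (log2 -1.13 ± 0.11, limma adjusted p = 1.42e-06). KO lay below WT in every library, and the 2 WT groups, although their libraries did not overlap, did not differ by the test (log2 -0.24 ± 0.11, limma adjusted p = 0.0897).

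MICL, the product of Clec12a (ENSMUSG00000053063, chromosome 6, 129342691 to 129365303, plus strand), is an inhibitory receptor that recognises uric acid crystals. It differed by more between the 2 WT groups than between the genotypes of either cell type. Between the KO groups it differed by less (log2 2.54) than between the genotypes of microglia. It stood at 4.41, 0 and 9.31 in WT microglia and at 853, 965 and 969 in WT macrophages, a 203-fold difference of the means (log2 7.92 ± 0.55, limma adjusted p = 2.13e-08). KO microglia stood at 236, 199 and 183, a 45.0-fold rise over WT (log2 5.75 ± 0.55, limma adjusted p = 4.6e-07) that left every library below the WT macrophage libraries. KO macrophages stood at 1626, 1092 and 962 and overlapped WT macrophages (log2 0.37 ± 0.55, limma adjusted p = 0.650). The highest of these values came from the KO macrophage library with the fewest reads, and without it the change was 0.14 (limma adjusted p = 0.890). Monocyte markers, given here because monocytes express MICL, had 7 of 8 genes in the table. They summed to 42.4 to 59.3 (WT) and 139 to 180 (KO) in microglia, and to 188 to 238 (WT) and 299 to 499 (KO) in macrophages. Without Ccr2, the highest of them, the sums were 14.2 to 21.2 (WT) and 24.6 to 43.4 (KO) in microglia. In macrophages they were 31.9 to 40.7 and 154 to 162. Single markers differed. Ly6c2, whose product the gate excluded, was at 0 in every library of the first 3 groups and had a mean of 0.821 in KO macrophages. Treml4 went from 3.70 to 121 in macrophages and Ccr2 from 32.9 to 130 in microglia, while Vcan went from 10.2 to 9.01 in macrophages. The part of monocytes in the Clec12a result was not tested.

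MGL1, encoded by Clec10a (ENSMUSG00000000318, chromosome 11, 70156197 to 70170834, plus strand), binds terminal galactose and N-acetylgalactosamine and is the only member not on chromosome 6. A single read fell in it in the WT microglia libraries, against 2188 reads in the KO microglia libraries, where it stood at 655, 674 and 671. In macrophages it stood at 18.2, 36.9 and 20.6 in WT and at 1457, 1257 and 1117 in KO libraries, a 50.6-fold rise (log2 5.67 ± 0.27, limma adjusted p = 1.19e-09). KO exceeded WT in every library of both cell types, and the KO macrophage libraries exceeded those of KO microglia. WT macrophages had 74 reads, a ratio of 68.7 to WT microglia (95% counting interval 11.9 to 2749). Of its 50-base transcript sequences 9.02% also occur in other genes, nearly all in Mgl2, so reads may be shared between that pair.

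**Figure D2:**
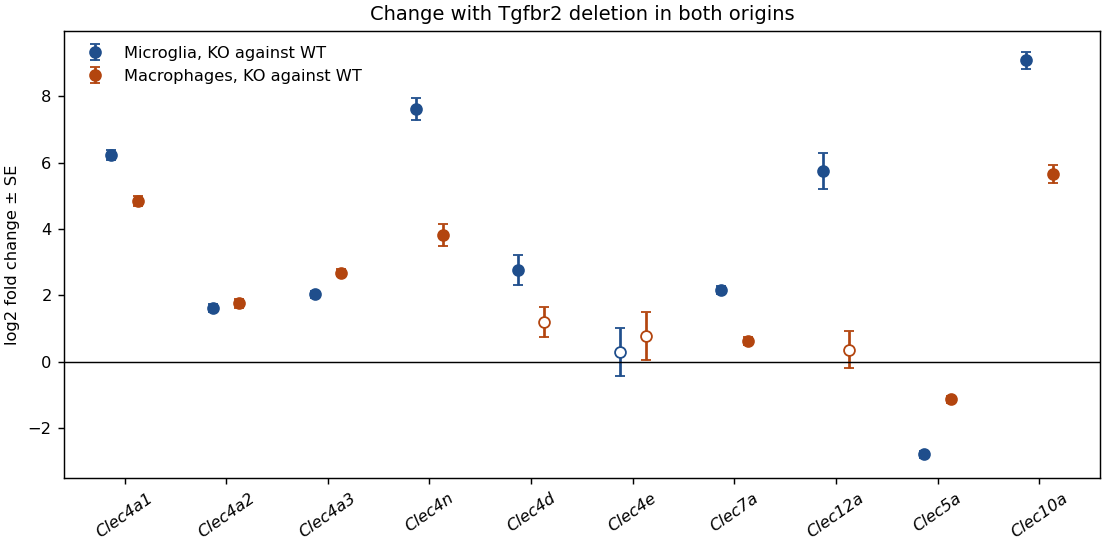
Log2 change of each receptor gene between KO and WT cells (on values with 1 added), in microglia (blue) and macrophages (red); points are limma estimates with standard errors, filled where the test was passed. Clec5a lies below 0 in both cell types, and the microglia points of Clec12a, Clec4n and Clec10a lie above their macrophage points.

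WT macrophages had more of most receptors than WT microglia. Of the 10 genes 6 were called higher in WT macrophages (Clec4a1, Clec4d, Clec4n, Clec7a, Clec10a and Clec12a) and 1 lower (Clec4a3), against 19.2% and 20.2% of all tested genes. The median log2 difference was 2.25 (-0.00 for all tested genes). That median includes Clec4d and Clec4e, which met the filter through macrophage libraries alone, so it does not support a difference. The count of genes called higher includes Clec4d. Clec4e had 16 reads in WT macrophages against 2 in WT microglia, a ratio of 7.42 (95% counting interval 1.75 to 66.6) that did not pass the test (limma adjusted p = 0.0710). In WT macrophages 1 of its 3 libraries was at 0.910 and the others at 10.2 and 5.76. Without that library the adjusted p was 0.0168, the only 1 of the alternatives in which Clec4e was called here. It met the filter through macrophage libraries alone, so this call supports nothing.

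Among KO cells the 2 origins were closer to each other for most members, but not for every gene. Clec5a was further apart, at log2 1.42 against -0.24 between the WT groups. The estimates of Clec4a2 and Clec4e were also larger, and neither passed the test in either comparison. Of the 10 genes 5 were called higher in KO macrophages than in KO microglia and 0 lower, against 5.45% and 5.05% of all tested genes. The median log2 difference was 1.21. It includes Clec4d and Clec4e, which met the filter through macrophage libraries alone, so the median does not support a difference. Clec12a was 5.96-fold higher (log2 2.54 ± 0.55, limma adjusted p = 0.00643), Clec5a 2.69-fold (log2 1.42 ± 0.11, limma adjusted p = 5.03e-07) and Clec7a 2.34-fold (log2 1.22 ± 0.13, limma adjusted p = 9.88e-06). Clec4n (log2 1.20 ± 0.33, limma adjusted p = 0.03) and Clec10a (log2 0.93 ± 0.27, limma adjusted p = 0.0377) were also called. Leaving out any 1 of the 3 KO microglia libraries, or KO macrophage replicate 1 or 2, ended both of those calls, with adjusted p from 0.0651 to 0.120 for Clec4n. For Clec10a it was from 0.0845 to 0.123 in those fits, and 0.0562 without KO macrophage replicate 3. The DCIR genes Clec4a1 (log2 -0.39 ± 0.15, limma adjusted p = 0.112), Clec4a2 (0.18 ± 0.13, 0.460) and Clec4a3 (-0.20 ± 0.11, 0.3) did not pass the test between the KO groups. Nor did the scarce Clec4d (log2 1.34 ± 0.45, limma adjusted p = 0.0776) and Clec4e (2.22 ± 0.73, 0.0689). Clec4d passed it with a pseudocount of 8 (0.0173) or without the mean-variance trend (0.0115), and Clec4e without WT macrophage replicate 1 (0.0445). Both genes met the filter through macrophage libraries alone, so those passes support nothing.

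The change with genotype differed between the cell types for 7 of the 10 genes by the interaction term, the KO effect in macrophages minus that in microglia. It was positive for 2 and negative for 5, against 13% and 12.9% of all tested genes, with a median of -1.47. The median includes Clec4d and Clec4e, which met the filter through macrophage libraries alone. The negative values were -5.38 ± 0.78 for Clec12a (limma adjusted p = 0.000114), -3.78 ± 0.47 for Clec4n (2.71e-05) and -3.41 ± 0.38 for Clec10a (8.74e-06). Clec7a had -1.54 ± 0.18 (limma adjusted p = 1.41e-05) and Clec4a1 -1.40 ± 0.21 (0.000141). These 5 genes thus rose by more on the log2 scale in microglia, from a lower WT level. The positive values were 1.66 ± 0.15 for Clec5a (limma adjusted p = 1.22e-06) and 0.65 ± 0.15 for Clec4a3 (0.00612). On the same scale Clec5a fell by less in macrophages and Clec4a3 rose by more in them. With 8 added before taking logs the 2 terms that rest on 1 or 2 WT microglia reads were smaller and still called, at -1.44 for Clec4n (limma adjusted p = 0.000141) and -1.04 for Clec10a (0.00448). No difference was detected for Clec4a2 (0.14 ± 0.19, limma adjusted p = 0.642), Clec4d (-1.54 ± 0.64, 0.0917) or Clec4e (0.48 ± 1.03, 0.779).

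Per kilobase of exon, a different receptor was at the top of the order in WT microglia and in WT macrophages. In microglia the 10 genes summed to 341 to 397 normalised counts per kilobase without the deletion and 2091 to 2206 with it. In macrophages they summed to 608 to 648 and 2436 to 3103. In WT microglia Clec4a3 (172 ± 24.8 per kilobase) was ahead of Clec5a (118 ± 9.42), and the pair made up 47.1% and 32.4% of the sum. Clec4a2 (41.0 ± 5.89), Clec7a (23.3 ± 4.07) and Clec4a1 (8.97 ± 2.06) followed, and none of these 5 neighbours overlapped. The remaining 5 genes each had a mean below 1 per kilobase, in overlapping ranges.

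In KO microglia Clec4a1 (716 ± 10.7 per kilobase) and Clec4a3 (702 ± 36.5) overlapped each other at the top, with 33.5% and 32.9% of the sum. Clec10a (230 ± 3.59), Clec4n (200 ± 20.1), Clec4a2 (126 ± 4.4) and Clec7a (105 ± 10.2) came next without overlap, and Clec5a had dropped to 17.0 ± 1.88. In WT macrophages Clec12a (168 ± 11.9) and Clec7a (159 ± 6.74) overlapped at the top, and Clec5a (99.8 ± 3.0) and Clec4a3 (94.5 ± 7.44) overlapped behind them. In KO macrophages the first 2, Clec4a3 (612 ± 47.0) and Clec4a1 (546 ± 53.0), overlapped, and so did Clec4a1 with Clec4n (465 ± 75.2) and Clec4n with Clec10a (440 ± 58.8). Below a gap Clec7a (247 ± 27.8) and Clec12a (222 ± 63.7) overlapped, followed by Clec4a2 (143 ± 17.6) and Clec5a (45.6 ± 2.70). The order in both KO groups thus began with Clec4a1 and Clec4a3, whereas Clec4a1 had rank 5 in WT microglia and rank 7 in WT macrophages. The length used merges all annotated exons of a gene, so this order depends on the annotation. Undivided, the mean of Clec5a (454) was above that of Clec4a3 (228) in WT microglia. In KO macrophages Clec10a (1277) and Clec12a (1227) were above Clec4a1 (851) and Clec4a3 (811).

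**Figure D3:**
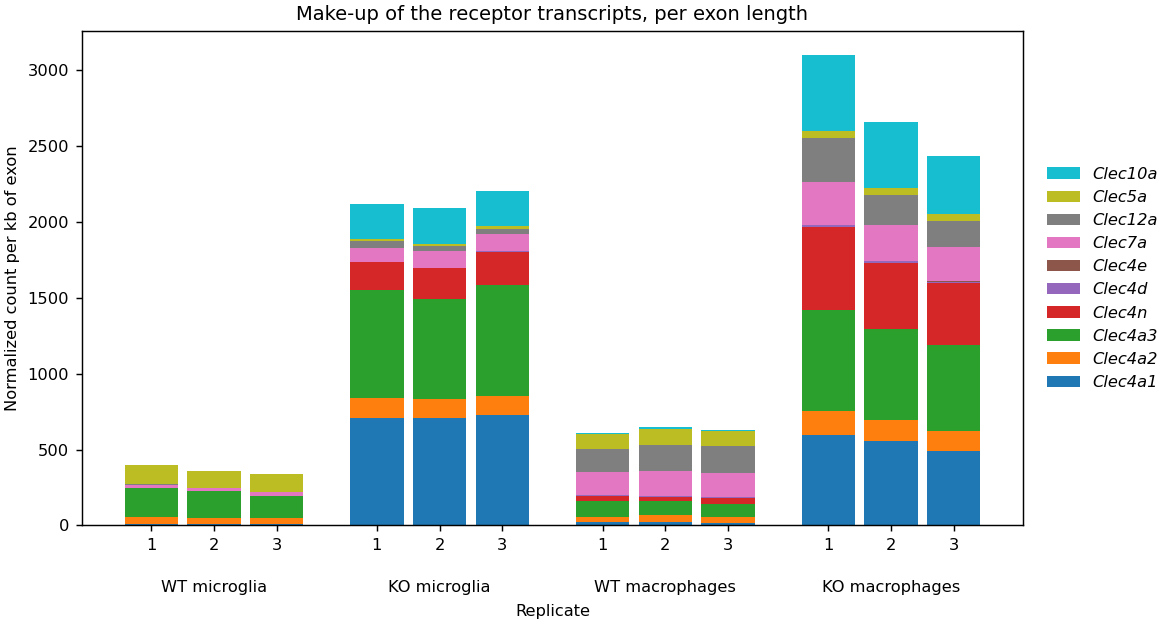
Normalised counts per kilobase of exon of the 10 receptor genes, stacked for each of the 12 libraries. The KO libraries sum to 2091 to 3103 and the WT libraries to 341 to 648, and Clec4a1, Clec4a3, Clec4n and Clec10a take most of the KO bars.

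Of the 10 genes 8 lie in 2 clusters on chromosome 6. The Dectin-2 cluster, from Clec4a1 to Clec4e (122921848 to 123289870, 368 kilobases), has 13 annotated genes, 9 of them protein-coding, and 6 are members. The 9 protein-coding genes were in the table and 7 were tested, of which 6 were called higher in KO microglia (21.9% of all tested genes) and 5 in KO macrophages (16%). The non-member called was Clec4b1, which encodes the activating receptor DCAR and had 2 reads (0.774) in WT microglia against 152 ± 10.1 in KO microglia. In macrophages it stood at 6.13 ± 2.40 (WT) and 161 ± 7.78 (KO). Clec4b1 passed the filter through the KO groups alone, so the counts that include it support nothing about the cluster. Clec4a4 and Clec4b2, in the same cluster, were too low to test. Clec4a4 had means of 2.40 (WT) and 5.75 (KO) in microglia and of 2.15 and 6.22 in macrophages, and Clec4b2 had 0 reads in both WT groups, 5 in KO microglia and 2 in KO macrophages.

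The Dectin-1 cluster (129342691 to 129472779, 130 kilobases) has 7 annotated genes, of which Clec12a and Clec7a are members, and 4 were tested. All 4 were called higher in KO microglia and 3 in KO macrophages, against the same 21.9% and 16%. The 2 that are not members, Clec9a and Clec1b, passed the filter through the KO macrophage libraries alone, where they are highest, so the counts and tests that include them support nothing about the cluster. Clec9a, which encodes the receptor DNGR-1 of dendritic cells, had means of 0.723 in WT and 6.40 in KO microglia, and of 3.98 in WT and 63.1 in KO macrophages. Clec1b, which encodes the podoplanin receptor CLEC-2, had means of 6.23 in WT and 67.3 in KO macrophages. Unlike Clec12a, these neighbours had low levels in WT macrophages. Their annotated spans overlap each other at their ends, so some reads may belong to either. Dendritic cell markers, given here because of Clec9a, (10 of 10 in the table) summed to 125 to 163 in WT and 178 to 205 in KO macrophages, and to 168 to 201 and 231 to 309 in the corresponding microglia. Without Batf3, the highest of them, the sums were 51.9 to 62.3 in WT and 49.6 to 106 in KO macrophages, which overlap. In the corresponding microglia they were 95.2 to 134 and 137 to 178. Single markers went both ways in macrophages, Flt3 from 22.8 to 3.03 and Kmo from 3.03 to 25.8. The part of dendritic cells in the Clec9a result was not tested. Clec12b was not analysed here.

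**Figure D4:**
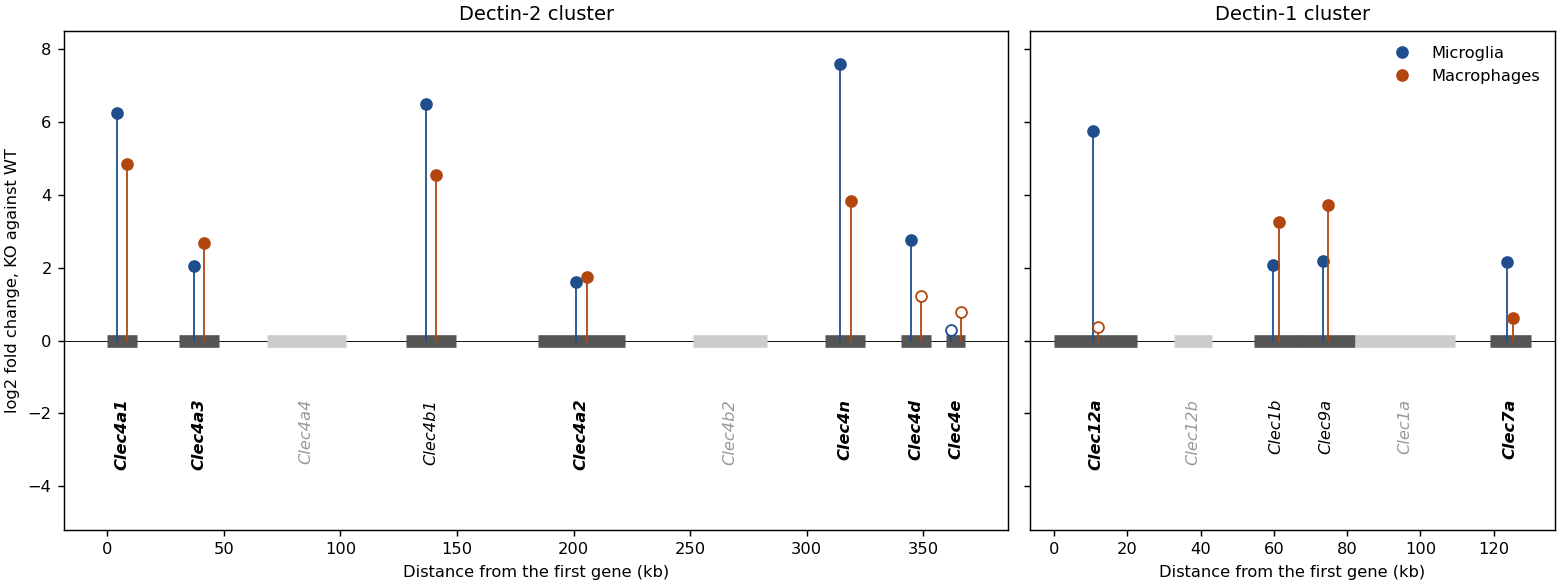
Log2 change between KO and WT cells (on values with 1 added) of the genes of the Dectin-2 and Dectin-1 clusters against their distance from the first gene of the cluster in kilobases; blue is microglia, red macrophages, filled points passed the test, open points did not, bold names are members, and grey names were not tested. Every tested gene lies above 0 in both cell types, from 0.30 for Clec4e to 7.61 for Clec4n in microglia. The median of all tested genes was -0.01 in microglia and 0.00 in macrophages. The microglia value of Clec4e (SE 0.73) changed sign when single libraries were left out. Clec4d, Clec1b and Clec9a passed the filter through the KO macrophage libraries alone, so their place above 0 in macrophages supports nothing. Clec4b1 passed it through the KO groups alone, so its place above 0 supports nothing in either cell type.

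Transcripts for the proteins that pass on the signals of these receptors were called in both directions, at shares near those of all tested genes for the higher calls in microglia. Of 36 signalling genes, all tested, 7 were called higher and 17 lower in KO microglia (median log2 -0.22), against 21.9% and 20.6% of all tested genes. In KO macrophages 10 were higher and 13 lower (median -0.11), against 16% and 15.4%. Without WT microglia replicate 2 the number lower in KO microglia was 11. The adaptor of Dectin-2, MCL and Mincle, Fcer1g, rose in microglia from 1012 ± 34.4 to 1712 ± 11.4 (log2 0.76 ± 0.10, limma adjusted p = 1.44e-05) and in macrophages from 873 ± 58.6 to 1491 ± 250 (0.76 ± 0.10, 3.37e-05). The kinase Syk rose from 1568 ± 108 to 2357 ± 219 (log2 0.59 ± 0.09, limma adjusted p = 4.99e-05) and from 1592 ± 90.2 to 2615 ± 137 (0.72 ± 0.09, 1.59e-05). The adaptor of MDL-1, Tyrobp, stood at 1035 ± 78.8 and 1006 ± 52.5 in microglia (limma adjusted p = 0.845) and rose from 725 ± 9.32 to 1069 ± 276 in macrophages (log2 0.53 ± 0.13, limma adjusted p = 0.00637).

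Downstream of Syk, the adaptor Card9 fell in both cell types. Card9 in microglia went from 678 ± 63.0 to 282 ± 44.0 (log2 -1.27 ± 0.13, limma adjusted p = 1.4e-06) and in macrophages from 567 ± 109 to 302 ± 19.0 (-0.89 ± 0.13, 0.000125). Plcg2, the phospholipase activated by Syk, went from 1645 ± 40.9 to 499 ± 2.65 in microglia (log2 -1.72 ± 0.11, limma adjusted p = 5.33e-09). The inositol phosphatase SHIP-1, encoded by Inpp5d, which dampens such signals, fell in microglia from 5820 ± 303 to 1824 ± 140.8 (log2 -1.67 ± 0.09, limma adjusted p = 1.07e-09) and in macrophages from 4400 ± 138 to 2110 ± 263 (-1.07 ± 0.09, 6.91e-07). Vav3, a signalling protein of the Vav family, rose in microglia from 5 reads (1.84 ± 0.870) to 1116 ± 48.6, and in macrophages from 106 ± 4.82 to 829 ± 87.6 (log2 2.95 ± 0.19, limma adjusted p = 2.11e-08). Its relative Vav1 fell in both. In macrophages the kinase gene Fgr rose from 25.4 ± 11 to 148.9 ± 50.2 (log2 2.53 ± 0.31, limma adjusted p = 1.76e-05). Src fell there, with 12.8, 85.5 and 76.1 in the KO libraries against a WT mean of 201 ± 34.6 (log2 -2.14 ± 0.48, limma adjusted p = 0.00310). In microglia Src stood at 199 ± 39.9 in WT and 85.3 ± 6.07 in KO cells (limma adjusted p = 0.0550), a difference that passed the test under 8 alternatives, with adjusted p from 4.69e-06 (without KO macrophage replicate 1) to 0.0450. Without that library the macrophage change was -1.29 (limma adjusted p = 2.17e-05).

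**Figure D5:**
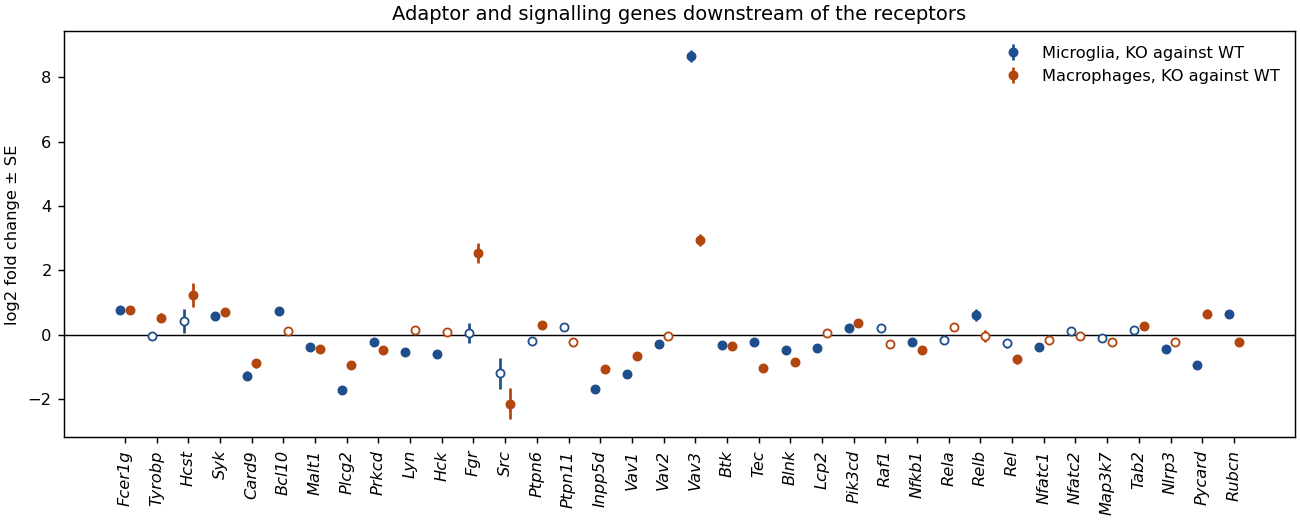
Log2 change between KO and WT cells of the 36 signalling genes, with standard errors, in microglia (blue) and macrophages (red); filled points passed the test and open points did not. Fcer1g and Syk lie above 0 in both cell types, Card9, Plcg2 and Inpp5d lie below 0 in both, and Vav3 is at 8.67 in microglia.

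Other C-type lectin domain genes were compared with the 10 receptors. Of 68 listed genes 55 were in the table and 20 were tested, of which 15 were called higher and 2 lower in KO microglia (median log2 3.12), against 21.9% and 20.6% of all tested genes. In KO macrophages 10 were higher and 0 lower (median 1.17), against 16% and 15.4%. Clec1b and Clec9a passed the filter through KO macrophages alone, Clec4b1 through the KO groups alone and Mrc2 through WT microglia alone. The higher counts and medians that include the first 3, and the lower count in microglia that includes Mrc2, therefore support nothing about the list. Mgl2, the neighbour and near relative of Clec10a, in microglia went from 6.87 ± 3.14 to 854 ± 48.1 (log2 6.84 ± 0.21, limma adjusted p = 1.01e-12) and in macrophages from 159 ± 23.5 to 2321 ± 338 (3.86 ± 0.21, 5.62e-09). The mannose receptor Mrc1 rose in microglia from 87.6 ± 14.9 to 16082 ± 2279 (log2 7.51 ± 0.13, limma adjusted p = 1.75e-15). It was already at 4356 ± 514 in WT macrophages and at 12182 ± 301 in KO macrophages (log2 1.49, limma adjusted p = 4.66e-07). Cd93, a receptor of endothelial and myeloid cells, had 5 reads in WT microglia and stood at 1574 ± 89.9 in KO microglia, and rose in macrophages from 493 ± 35.2 to 3677 ± 578 (log2 2.89 ± 0.32, limma adjusted p = 7.81e-06). Asgr2, a subunit of the asialoglycoprotein receptor, rose from 94.5 ± 6.28 to 326 ± 37.7 in macrophages (log2 1.77 ± 0.14, limma adjusted p = 2.15e-07). Mrc2, the collagen receptor Endo180, went the other way, from 497 ± 142 in WT microglia to 4 reads (1.13) in KO microglia, and had a mean of 2.59 in WT macrophages.

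For each receptor the tested genes with the most similar profile were found by Pearson correlation of log2 values over the 12 libraries, among 6549 or 6550 genes with a mean of at least 100 in some group. These values describe profiles over the same 4 groups, which share library and group, and carry no test. Clec4a1 was nearest to Fcgr4 (r = 0.995), an activating Fc receptor, and Mmp13 (0.995). Clec4a2 was nearest to Cfp (0.990) and Sulf2 (0.988), and Clec4a3 to Cd300a (0.992), an inhibitory receptor, and Lpl (0.988). Clec4n was nearest to Vcam1 (0.997), an adhesion molecule, and Spic (0.996), a transcription factor of iron-handling macrophages. Clec10a had Tmem51 (0.996) and Pltp (0.994). Clec7a was nearest to Lyz2 (0.994), the myeloid lysozyme, and Cpq (0.991). Clec12a was nearest to Ezr (0.989) and Parvb (0.985). The falling Clec5a had Arhgap27 (0.995) and Havcr2 (0.992), which encodes the inhibitory receptor TIM-3 and whose mean was 1395 (WT) and 86.7 (KO) in microglia, and 955 and 296 in macrophages. The scarce Clec4d had Marveld1 (0.991) and Igsf6 (0.985), and Clec4e had Sfxn3 (0.913) and Rmc1 (0.863), the lowest likeness of the 10.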

How the data were processed

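The deposited table holds log2 values, which per the file headers and their agreement with whole reads are log2 of the gene count divided by a library size factor, plus 1. Taken back, 100% of its 310848 values were whole reads within 0.01 read. Per the labels' protocols, libraries were made from over 100 pg of total RNA with RIN 7.1 to 10 and a stranded pico-input kit. Per the submitters' processing notes, bcl2fastq, CASAVA, STAR and GRCm38 were used. No source used here gives the counting tool, its strand setting or the gene annotation. Symbols, exon lengths and coordinates came from GENCODE M21 (GRCm38), which named 25730 of the 25904 identifiers, and promoters from RefSeq GRCm38.p6.

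Genes with a normalised count of at least 10 in at least 3 libraries (12519) were fitted with limma 3.58.1 in R 4.3.3, with trend, 1 mean for each of 4 groups and 8 residual degrees of freedom, and p was adjusted by the Benjamini-Hochberg method over all of them at a threshold of 0.05. The other 13385 genes were not tested. Log2 changes are on the log2(value + 1) scale, which understates those of low genes, and are given with their standard errors. Means are given ± SD (n = 3). Counting intervals are exact at 95%, the floor is 3 reads, and both cover counting error only. The fit was tested on simulated data. The labels call the 3 samples of a group biological, and they were numbered in the order of deposit.

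All 10 members are named in every comparison. Of the signalling and lectin lists, up to 4 called genes with the largest change and a mean of at least 100 in the higher group are named per KO comparison, with Fcer1g, Tyrobp, Syk and Card9 always. Cluster neighbours, and Vav1, were added after their values were seen. For each member the 2 genes of most similar profile are named. The members and lists were chosen with earlier results of these data known. Microglia, macrophage, border macrophage, monocyte, neutrophil, dendritic, T and NK, B, neuron, astrocyte, oligodendrocyte and endothelial marker lists were summed as a description. Alternatives were another pseudocount, filter, scaling, moderation, the 2 groups alone, Ddx3y as a covariate and each library left out.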

Additional observations from a re-analysis of the deposited data

Results flagged for a closer look

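For 7 of the 10 receptors the change with genotype differed between macrophages and microglia by limma's interaction term (log2 KO effect in macrophages minus that in microglia). It was -1.40 for Clec4a1, -3.78 for Clec4n, -1.54 for Clec7a, -3.41 for Clec10a and -5.38 for Clec12a. All of these rose by a larger fold in microglia, from a lower WT level, which was 2 reads for Clec4n and 1 read for Clec10a. A larger fold is not a larger rise in counts. The KO means of Clec4n were 285 in microglia and 660 in macrophages, and those of Clec10a 667 and 1277. It was 0.65 for Clec4a3, which rose by a larger fold in macrophages, and 1.66 for Clec5a, which fell by more in microglia. All 7 stayed called under every alternative run.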

How the results depend on the processing

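No paired analysis was possible because the labels give no replicate numbers that pair samples across groups. Of the 1750 recomputed changes of named genes, 1705 kept their direction and their side of the threshold, 18 became called, 15 lost the call and 12 changed sign, none of them called in either fit, and of 376 recomputed counts 353 stayed within 1.5 times. The 12 belong to differences near 0 or of few reads. With single libraries left out, the microglia change of Clec4e ran from -0.22 to 0.77 and its interaction term from -0.25 to 1.00, Clec4a2 from -0.077 to 0.12 between the WT groups, Tyrobp from -0.10 to 0.0094 in microglia and Fgr from -0.14 to 0.28 in microglia. With Ddx3y as a covariate the interaction term of Clec4a2 was -0.011 and the microglia change of Tyrobp 0.0041, and with quantile normalization the latter was 0.031. Clec4d could not be fitted when any 1 KO macrophage library was left out or with the filter of 50, since it then missed the filter. Clec4e missed it without WT macrophage replicate 2, without KO macrophage replicate 1 or 3, and with the filter of 50. Its ranges above leave those fits out.

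Fitting only the 2 groups compared gave 2 members lower in WT macrophages than in WT microglia (1 in the fit of all groups, Clec5a being the addition) and 1 lower in KO macrophages than in KO microglia (0 in the fit of all groups, Clec4a1 being the addition, limma adjusted p = 0.0287). Leaving out single libraries gave 3 to 6 members higher and 0 to 1 lower in that KO comparison, 11 to 20 signalling genes lower in KO microglia, and 0 to 2 other lectins lower in KO microglia and 0 to 1 in KO macrophages. The fewest lectins, 0, came without WT microglia replicate 3, and that library's absence also gave the 1 lower member. A filter of 50 gave 1 other lectin lower in KO microglia. For KO macrophages (0 lower in the main analysis) 1 was lower with a pseudocount of 8, with the 2 groups alone, with scaling by library total and with Ddx3y as a covariate, and 2 with no filter. The cause of these shifts was not tested.

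In the comparison of the KO groups, the calls of Clec4n and Clec10a were also lost without the mean-variance trend (limma adjusted p = 0.0781 and 0.0841), that of Clec10a with Ddx3y as a covariate (0.2), and that of Clec12a with robust moderation (0.0657). Depth limits Clec4d and Clec4e, which had at most 50 and 26 reads in a group.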
